A study of Mus musculus with 9 samples.

Results

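Imprinted genes other than H19 and Igf2 were examined in mouse embryonic fibroblasts (MEFs), with and without H3K9 KMTs, the lysine methyltransferases that mark histone H3 at its ninth lysine. The members were 35 named imprinted genes from 18 domains, found by matching their symbols to the Ensembl identifiers of the count table, which holds 47937 genes. RNA-seq was available for 9 libraries, 3 for each genotype. WT cells are Eset1-conditional MEFs, a clone that carries floxed Eset1 (Setdb1) and a tamoxifen-inducible Cre, S1S2 cells carry disrupted Suv39h1 and Suv39h2 genes, and in G9Gl cells the genes for G9a (Ehmt2) and Glp (Ehmt1) are disrupted. Per the study's methods, both mutants were made from the conditional line with CRISPR/Cas9 and each is a single clone chosen by western blot. The methods also describe adding an inducible Cre construct again after gene disruption and keeping the lines in puromycin. Genotype cannot be told apart from clone or, where it was done, from this handling. All genotypes share the conditional Eset1 alleles, and the sample titles do not say whether tamoxifen was given. The study's methods call the 3 libraries of a genotype biological replicates, but neither they nor the labels say how these were kept apart, so p-values measure the spread between cultures of a single clone at most.

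Imprinted genes are transcribed mainly from the chromosome inherited from 1 parent. Many lie in clusters governed by an imprinting control region that is DNA-methylated on a single parental chromosome, and at such regions the methylated copy typically also carries H3K9 methylation. Imprinted genes are best known for roles in fetal and placental growth, in neurons and in metabolism, and a number of them are active in fibroblasts. The counts do not separate the parental alleles, so each value below is the sum of both, and a lower value from fewer expressing cells cannot be told from less RNA per cell.

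Libraries held between 21319778 and 32157623 counts, and a floor of 3 counts corresponded to between 0.0923 and 0.141 CPM (counts scaled by the size of the library). Suv39h1 fell 2.57-fold in S1S2, and in G9Gl Ehmt2 fell 2.3-fold and Ehmt1 2.06-fold, while Suv39h2 was 1.63-fold higher in S1S2. A frameshift need not lower RNA, so these levels do not test the loss of protein. Fibroblast markers were present in every library. Their summed level over 8 genes was between 9848 and 11348 CPM in WT, between 7401 and 7466 CPM in S1S2 and between 7794 and 8655 CPM in G9Gl. Col1a2, Col3a1, Pdgfrb and Thy1 were called lower in S1S2, and in G9Gl Pdgfrb lower and Thy1 higher. Under the fold cutoff in S1S2, Vim was 1.65-fold higher (adjusted p = 1.4e-08). S100a4 was 1.89-fold and Col1a1 1.29-fold lower there (adjusted p = 6.71e-10 and 0.00108), and Fn1 was 1.06-fold higher (adjusted p = 0.127). Summed over 16 markers of other cell types, the level was between 30.1 and 32.3 CPM in WT, between 42.2 and 46.3 CPM in S1S2 and between 24.1 and 33.3 CPM in G9Gl. Most of this sum was Tubb3, a neuronal tubulin gene, at 24.9 CPM in WT, 39.1 CPM in S1S2 and 21.7 CPM in G9Gl (adjusted p = 1.89e-05 for S1S2 against WT, under the fold cutoff), and Adgre1, Pou5f1, Gcm1 and Tfap2c had no count in any library. Of the 5 that could be tested, Map2 was called lower in S1S2 and Cdh5 higher in G9Gl. The part of these marker shifts in the results below was not tested.

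Of the 35 members, 19 had enough counts to be tested, 7 had a few counts and 9 had none in any library. Among the tested members, Snrpn, Plagl1, Grb10 and Phlda2 were called in at least 1 comparison, where a call required both an adjusted p no higher than 0.01 and a 2-fold or larger difference. Snrpn, which encodes the spliceosomal protein SmN, had no count in any G9Gl library. Plagl1, a zinc finger transcription factor that restrains proliferation, rose in S1S2 and fell in G9Gl. Grb10, an adaptor that dampens insulin and IGF receptor signalling, fell in S1S2, and Phlda2, which limits placental growth, rose there.

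**Figure D1:**
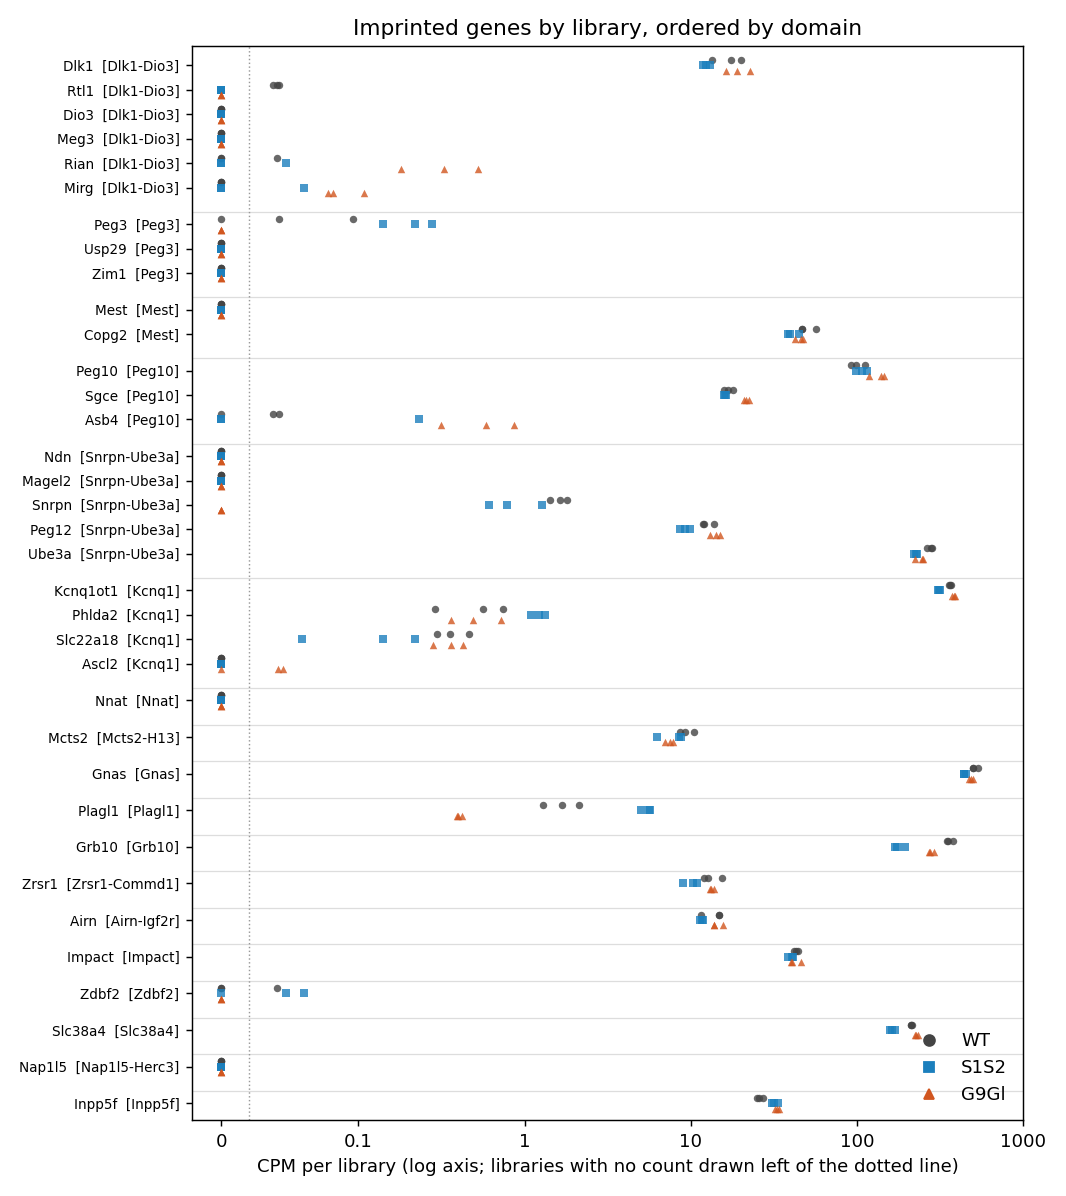
CPM of the 35 imprinted genes in each of the 9 libraries on a log axis, ordered by domain (named in brackets), with libraries that have no count drawn left of the dotted line. Circles are WT, squares S1S2 and triangles G9Gl, and the panel shows 9 genes at 0 throughout, Snrpn at 0 in G9Gl, and Plagl1 with its genotypes fully apart.

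The promoters of the 4 called members are shown for reference, and the comparisons below use gene counts only. Each is given as the 250 bases before the transcription start listed in RefSeq (GRCm38.p6), in the direction of transcription. Capitals mark TGCCGC or its reverse complement GCGGCA, the core hexamer that the imprint-protecting zinc finger protein ZFP57 recognises when methylated.
Snrpn, chr7:60005200-60005449, minus strand: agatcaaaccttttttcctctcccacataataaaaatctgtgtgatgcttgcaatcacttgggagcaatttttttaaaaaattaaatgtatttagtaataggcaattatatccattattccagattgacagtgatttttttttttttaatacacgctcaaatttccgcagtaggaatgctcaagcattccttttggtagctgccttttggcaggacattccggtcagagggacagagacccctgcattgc
Plagl1, chr10:13090582-13090831, plus strand: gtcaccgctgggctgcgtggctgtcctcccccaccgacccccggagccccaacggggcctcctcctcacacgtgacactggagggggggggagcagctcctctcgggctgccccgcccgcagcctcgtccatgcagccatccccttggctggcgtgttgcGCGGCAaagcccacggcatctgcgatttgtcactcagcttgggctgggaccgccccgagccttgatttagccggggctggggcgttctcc
Grb10, chr11:12037421-12037670, minus strand: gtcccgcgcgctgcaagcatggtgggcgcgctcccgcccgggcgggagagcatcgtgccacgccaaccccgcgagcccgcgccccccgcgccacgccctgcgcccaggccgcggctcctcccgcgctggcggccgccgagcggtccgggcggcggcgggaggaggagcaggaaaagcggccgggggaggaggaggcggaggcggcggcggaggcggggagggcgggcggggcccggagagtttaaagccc
Phlda2, chr7:143502525-143502774, minus strand: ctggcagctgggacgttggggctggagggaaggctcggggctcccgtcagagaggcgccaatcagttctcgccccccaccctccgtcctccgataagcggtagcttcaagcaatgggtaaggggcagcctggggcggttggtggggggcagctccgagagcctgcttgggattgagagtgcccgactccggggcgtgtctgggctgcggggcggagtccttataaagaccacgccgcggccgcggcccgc

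For Snrpn, 4 starts were listed and the one shown is the most downstream. For Grb10, the more upstream of the listed starts is shown. The sequence before Snrpn held 3 CpG dinucleotides, against 19 for Plagl1, 40 for Grb10 and 21 for Phlda2, and the median over the 32851 listed promoters was 6. In the 300-base window that adds 50 bases after the start, a hexamer was found once in Plagl1, 90 bases before the start. The windows shown for Snrpn and Grb10 each held 1, beginning 2 bases before the start and at base 25 after it. The other listed starts of Snrpn and Grb10 had no match in their windows. At the starts shown for Snrpn and Grb10, the 50 bases after the start were not found in a GENCODE transcript. Phlda2 had no match, which says only that these letters are not in this window. Entries were listed for 31 members, with 45 windows in all, of which 12 (26.7%) held the hexamer on either strand. Of all windows, 11.6% did. The 12 windows came from 11 members, since overlapping windows of Mest were counted separately. The hexamer contains a CpG, and the windows were not matched for CpG content. The difference between these shares was not tested and is not read as an enrichment.

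In S1S2 against WT, 3 of 19 tested members were called, and 9.0% of all 15540 tested genes were. In G9Gl against WT, 2 of 19 members were called, with 10.2% of all genes. Between the mutants, 3 of 19 were called, with 13.1% of all genes. These shares rest on few genes and no count of members is read as differing from the background. The median log2 fold change of the 19 tested members was -0.26 in S1S2 and -0.02 in G9Gl, each against WT, where the medians of all tested genes were close to 0 (-0.0032 and -0.0067).

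**Figure D2:**
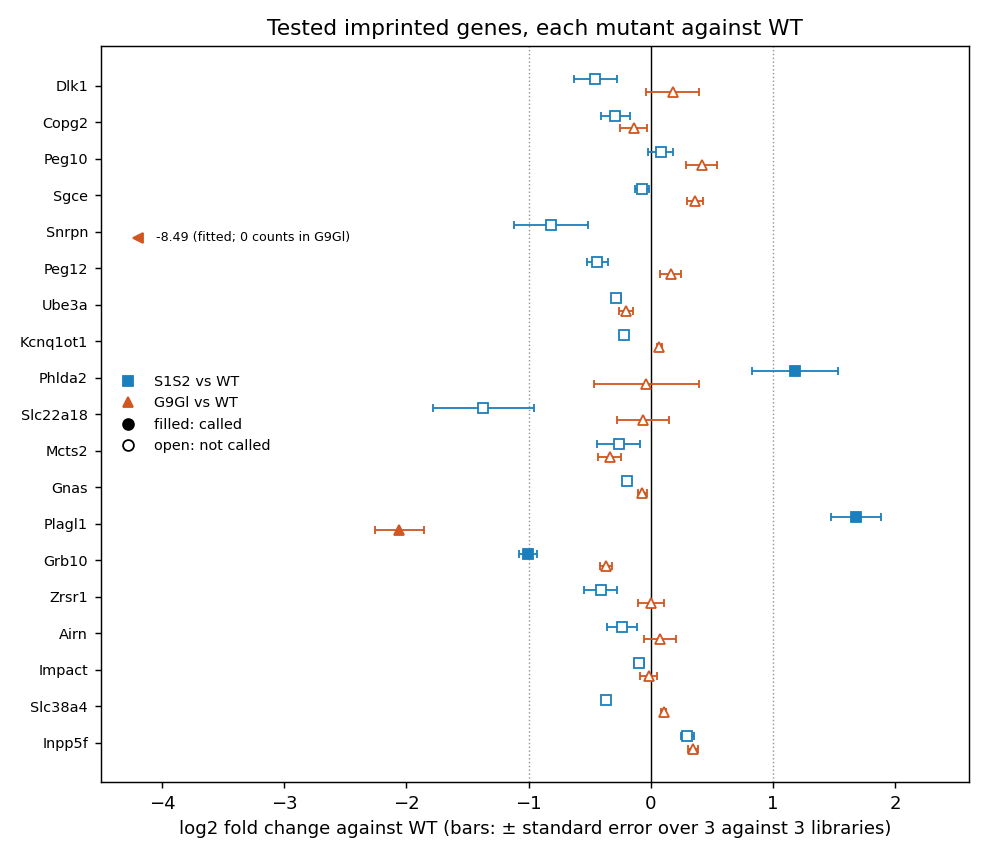
log2 fold change against WT of the 19 tested members, squares for S1S2 and triangles for G9Gl, with bars of ± 1 standard error (SE) from the spread between 3 and 3 libraries, and dotted lines at a fold change of 2. Filled symbols are called, and only Plagl1 is filled on both sides of 0; the arrow marks Snrpn in G9Gl, whose fitted value of -8.49 depends on the prior count because all 3 libraries had no count.

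The Snrpn-Ube3a domain, the imprinted region of Prader-Willi and Angelman syndromes, was examined first. Its control region lies at the start of Snrpn, and a long paternal transcript unit runs from there through Snrpn into the small nucleolar RNA host gene Snhg14 and on towards Ube3a. Snrpn (chromosome 7, 59982495 to 60140219, minus strand) had 53, 54 and 44 counts in WT, 17, 35 and 13 in S1S2, and 0 in each of the 3 G9Gl libraries. The genotypes did not overlap, and G9Gl was below the detection floor throughout. In CPM, the WT level was 1.61 ± 0.184 and the S1S2 level 0.889 ± 0.345 (SD, n = 3). Against the floor of 3 counts per library, Snrpn was at least 15.5-fold lower in G9Gl than in WT and at least 8.58-fold lower than in S1S2 (adjusted p = 1.17e-07 and 1.63e-06). In S1S2 it was lower than in WT by 0.82 on the log2 scale (SE 0.30, adjusted p = 0.026) and was not called. Without S1S2 replicate 2, the library with 35 counts, that difference was -1.21 with an adjusted p of 0.0071, past the cutoffs.

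Reads of Snrpn can be shared with overlapping transcripts, since 22.6% of its 75-base words also occur in Gm38393, Snurf or Gm18908. Gm38393, a gene model on the same strand that overlaps Snrpn, and Snhg14 were read beside it, chosen after their values were seen. Snhg14 does not overlap Snrpn, and Snurf and Gm18908 were not read. Gm38393 had 49, 39 and 43 counts in WT, 12, 16 and 16 in S1S2 and 0 in all G9Gl libraries. Snhg14 had 53, 41 and 41 counts in WT, 18, 6 and 8 in S1S2 and 0 in all G9Gl libraries. Both showed the same order of genotypes as Snrpn, and both were called lower in S1S2 than in WT (log2 fold change -1.15 and -1.64, adjusted p = 0.0026 and 0.0017). They were at least 13.4-fold (Gm38393) and at least 13.9-fold (Snhg14) lower in G9Gl than in WT.

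The other members of this domain with enough counts to test, Peg12 and Ube3a, were present in all 9 libraries. Peg12, an intronless paternal gene of the Frat family that lies on the far side of the cluster from Ube3a, had 13.7, 12.1 and 11.8 CPM in WT, 9.88, 9.22 and 8.65 CPM in S1S2 and 13.1, 14.9 and 14.1 CPM in G9Gl. The S1S2 libraries lay below all others, by 0.44 on the log2 scale from WT (SE 0.09, adjusted p = 8.7e-04), and in G9Gl the difference from WT was 0.16 (adjusted p = 0.14). Ube3a, an E3 ubiquitin ligase that is imprinted in neurons and biallelic in most other cells, was at 274 ± 10.7 CPM in WT, 225 ± 4.61 CPM in S1S2 and 238 ± 13.9 CPM in G9Gl (SD, n = 3). It was lower in both mutants, by 0.28 and 0.20 on the log2 scale (adjusted p = 7.68e-05 and 0.00165), less than the fold cutoff. Antisense genes, Snhg14 among them, face 27.3% of the Ube3a exon bases, and the part of shared reads in these differences was not tested. Ndn (necdin) and Magel2, MAGE family genes of neurons, had no count in any library. The neighbour Mkrn3, a paternal ring finger gene named after its values were seen, was at 2.28 CPM in WT, 2.26 CPM in S1S2 and 3.47 CPM in G9Gl.

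**Figure D3:**
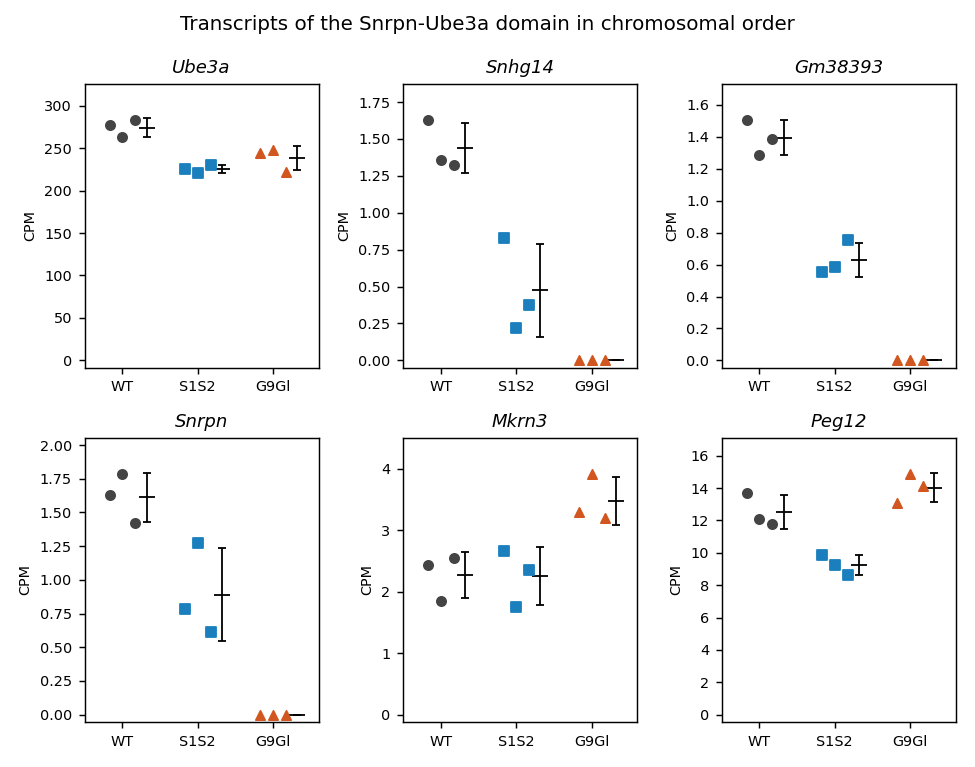
CPM per library of 6 transcripts of the Snrpn-Ube3a domain in chromosomal order, with mean ± SD (n = 3) in black beside the points. Snhg14, Gm38393 and Snrpn are at 0 in all 3 G9Gl libraries, whereas Ube3a, Mkrn3 and Peg12 are present in all 9.

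Plagl1 (chromosome 10, 13060504 to 13131694, plus strand) is the only gene of its domain on the list, and its transcript is paternal. Its counts were 42, 64 and 52 in WT, 109, 154 and 120 in S1S2, and 12, 11 and 12 in G9Gl. In CPM these were 1.29, 2.12 and 1.68 in WT, 5.01, 5.61 and 5.64 in S1S2, and 0.421, 0.395 and 0.392 in G9Gl. Every S1S2 library lay above WT and every G9Gl library below it, with no overlap. Plagl1 rose 3.21-fold in S1S2, by 1.68 on the log2 scale (SE 0.20, adjusted p = 3.8e-07), and fell 4.16-fold in G9Gl, a log2 change of -2.06 (SE 0.20, adjusted p = 3.6e-06). The mutants differed from each other 13.3-fold (adjusted p = 1.99e-10), the test of the difference itself. The promoter printed above is 1 of the possible starts, and the counts do not say which start was used.

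Grb10 (chromosome 11, 11930508 to 12038683, minus strand) is maternal outside the brain and paternal in neurons, with different starts. In the libraries it was among the members with the highest level per length, at 39.6 CPM per kb of exon in WT. It had 353, 349 and 378 CPM in WT, 169, 174 and 195 CPM in S1S2 and 292, 270 and 276 CPM in G9Gl. The 3 genotypes formed separate levels with no overlap, in the order S1S2, G9Gl, WT. Grb10 fell 2.01-fold in S1S2, a log2 change of -1.01 (SE 0.07, adjusted p = 6.76e-11), just past the fold cutoff. Without WT replicate 3, S1S2 replicate 1 or S1S2 replicate 2 the log2 fold change was -0.97, -0.96 and -0.99, short of the cutoff, with adjusted p of at most 4.12e-09. In G9Gl it was lower by 0.37 on the log2 scale (SE 0.05, adjusted p = 1.49e-05), and the mutants differed by 0.64 (adjusted p = 1.58e-08).

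The Kcnq1 domain on distal chromosome 7 is governed by the paternal non-coding RNA Kcnq1ot1, which runs antisense to Kcnq1 and silences maternal-type genes on its own chromosome. Kcnq1ot1 itself had 362, 367 and 354 CPM in WT, 308, 311 and 313 CPM in S1S2 and 384, 385 and 370 CPM in G9Gl. It was lower in S1S2 by 0.22 on the log2 scale (SE 0.02, adjusted p = 1.14e-04) and differed by 0.07 in G9Gl (adjusted p = 0.13). Over its 93092 exon bases this was 3.88 CPM per kb in WT.

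Phlda2 (chromosome 7, 143501545 to 143503150, minus strand) had 24, 17 and 9 counts in WT, 29, 30 and 26 in the shallower S1S2 libraries, and 14, 20 and 11 in G9Gl. Its level was 0.53 ± 0.226 CPM in WT, 1.22 ± 0.12 CPM in S1S2 and 0.523 ± 0.182 CPM in G9Gl (SD, n = 3). All S1S2 libraries lay above all others, while WT and G9Gl overlapped. Phlda2 rose 2.26-fold in S1S2, a log2 change of 1.18 (SE 0.35, adjusted p = 0.00676), and G9Gl was 2.32-fold lower than S1S2, by -1.22 on the log2 scale (SE 0.27, adjusted p = 0.00558). The call against WT was lost without WT replicate 2 or 3 or without any S1S2 replicate, with log2 fold changes between 0.88 and 1.25 and adjusted p between 0.0146 and 0.0321. Without WT replicate 1 the log2 fold change was 1.496 (adjusted p = 0.0045). The call between the mutants held only without G9Gl replicate 2 (-1.51, adjusted p = 0.00405), and the other fits gave between -1.29 and -0.99 with adjusted p between 0.0119 and 0.0347. With DESeq2 the adjusted p was 0.0164 against WT and 0.0144 between the mutants, so neither was called.

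Slc22a18, a maternal transporter gene next to Phlda2, had 15, 9 and 11 counts in WT, 1, 6 and 3 in S1S2 and 8, 10 and 13 in G9Gl. The S1S2 libraries were the lowest, with a log2 fold change of -1.37 (SE 0.41) that was not called (adjusted p = 0.0311). Ascl2, a trophoblast factor, had 1, 0 and 1 counts in G9Gl and none elsewhere.

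Of the 38 host and neighbour genes around the domains, 26 were tested. Called were 3 in S1S2 against WT, 5 in G9Gl against WT and 4 between the mutants, that is 11.5%, 19.2% and 15.4% of those tested, beside 9.0%, 10.2% and 13.1% of all tested genes. Cdkn1c, the maternal cyclin-dependent kinase inhibitor p57 of the Kcnq1 domain, had 21.9, 20.3 and 20.5 CPM in WT, 49.7, 50.5 and 51.4 CPM in S1S2 and 19.2, 20.6 and 20.1 CPM in G9Gl. S1S2 stood apart from WT by 1.27 on the log2 scale (SE 0.04, adjusted p = 7.83e-12), and G9Gl overlapped with WT (-0.07, adjusted p = 0.39).

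Kcnq1, the potassium channel gene that faces Kcnq1ot1, had 7, 3 and 1 counts in WT, 13, 15 and 11 in S1S2 and 51, 63 and 49 in G9Gl. It rose in both mutants (log2 fold change 2.20 and 3.95, adjusted p = 0.00103 and 1.32e-07). Whether strand was used in counting is not stated, so reads of this antisense pair may not be fully separated. Tspan32, a tetraspanin gene of the same region, had 25, 22 and 28 counts in WT, 3, 4 and 3 in S1S2 and 92, 87 and 90 in G9Gl. It moved in opposite directions in the mutants, by -2.46 in S1S2 and 1.95 in G9Gl on the log2 scale (adjusted p = 1.84e-05 and 1.99e-07).

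**Figure D4:**
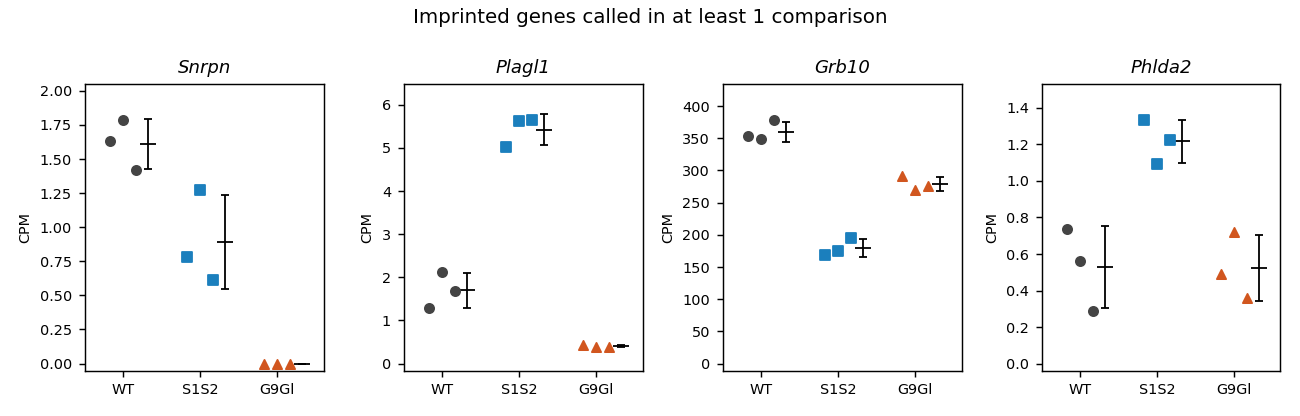
CPM per library of the 4 members called in at least 1 comparison, with mean ± SD (n = 3) in black beside the points. Snrpn is at 0 in G9Gl, Plagl1 is highest in S1S2 and lowest in G9Gl, Grb10 is lowest in S1S2, and Phlda2 is highest in S1S2.

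In the Peg10 domain on chromosome 6, Peg10 and Sgce start head to head and are both paternal. Peg10, a retrotransposon-derived gene needed in the placenta, had 98.8, 111 and 91.2 CPM in WT, 114, 107 and 97.8 CPM in S1S2 and 117, 145 and 139 CPM in G9Gl. Sgce, which encodes epsilon-sarcoglycan, had 18.0, 15.7 and 16.7 CPM in WT, 16.04, 16.2 and 15.7 CPM in S1S2 and 21.6, 22.5 and 20.9 CPM in G9Gl. For both genes all G9Gl libraries were above the others, and S1S2 overlapped with WT. The difference of G9Gl from WT was 0.42 for Peg10 (SE 0.13, adjusted p = 2.8e-04) and 0.36 for Sgce (SE 0.06, adjusted p = 3.05e-04) on the log2 scale, under the fold cutoff. Asb4, a maternal ankyrin repeat gene further along, had 1, 1 and 0 counts in WT, 5, 0 and 0 in S1S2 and 9, 24 and 18 in G9Gl. It was not tested because of its low counts, and the ratio of G9Gl to WT was 27.5 (95% exact counting interval 7.23 to 233). The neighbour Ppp1r9a, which encodes the actin-binding protein neurabin, rose in G9Gl by 1.30 on the log2 scale (adjusted p = 9.26e-09), from 9.72, 9.79 and 9.44 CPM in WT to 25.02, 22.5 and 23.6 CPM.

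The Dlk1-Dio3 domain on chromosome 12 holds paternal protein genes and a maternal array of non-coding RNAs. Dlk1, a Notch-like membrane ligand that restrains adipocyte differentiation, was the only member of it with enough counts to be tested. It had 17.4, 20.1 and 13.4 CPM in WT, 13.01, 12.2 and 11.9 CPM in S1S2 and 18.8, 22.6 and 16.3 CPM in G9Gl. S1S2 was lower than WT by 0.45 on the log2 scale (SE 0.17, adjusted p = 0.00883) with no overlap, and G9Gl differed from WT by 0.18 (SE 0.22, adjusted p = 0.26). Of the maternal RNAs, Meg3 had no count in any library. Rian, the snoRNA host, had 0, 0 and 1 counts in WT, 0, 1 and 0 in S1S2 and 15, 5 and 10 in G9Gl, a ratio of G9Gl to WT of 32.4 (95% exact counting interval 5.38 to 1320). Mirg, the microRNA host, had 2, 3 and 2 counts in G9Gl, a single count in S1S2 and none in WT. Rtl1, the retrotransposon-like paternal gene, had 1 count in each WT library and none in the mutants, and Dio3, a thyroid hormone deiodinase gene, had none anywhere. The neighbour Begain, a synaptic scaffold gene, was lower in G9Gl (log2 fold change -1.52, adjusted p = 0.00754), at 12, 15 and 14 counts in WT and 3, 3 and 7 in G9Gl. This call was lost with DESeq2, without the filter, in the fit of only WT and G9Gl, with the replicate block, and with each library left out except G9Gl replicate 3.

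**Figure D5:**
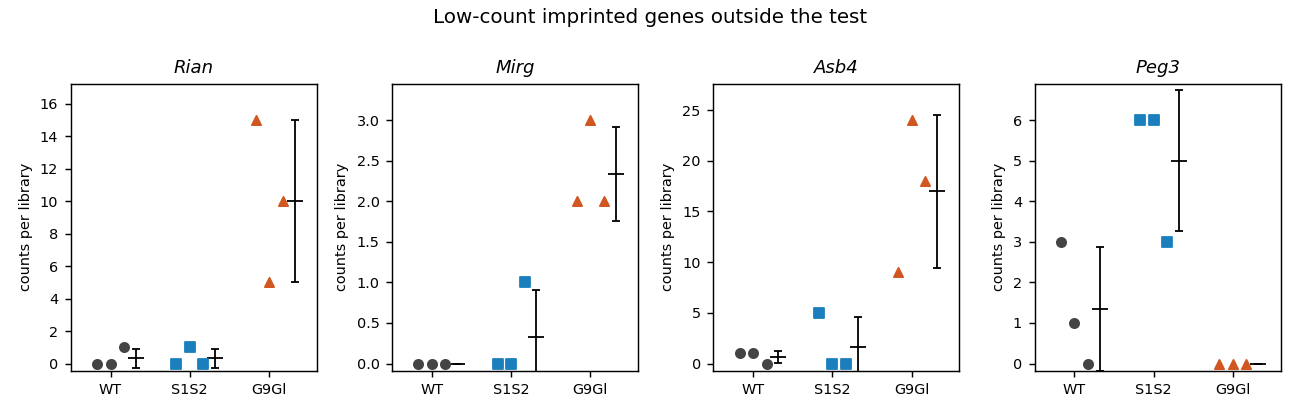
Counts per library of 4 members with too few counts to be tested, with mean ± SD (n = 3) in black beside the points and bars ending at the lower axis where they would pass below it. Rian, Mirg and Asb4 have their highest counts in G9Gl, and Peg3 has its highest in S1S2 and 0 in all G9Gl libraries.

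In the Peg3 domain on proximal chromosome 7, Peg3, a paternal zinc finger gene, had 3, 1 and 0 counts in WT, 6, 6 and 3 in S1S2 and 0 in all G9Gl libraries. The S1S2 libraries were the highest, and against the floor Peg3 was at least 2.04-fold lower in G9Gl than in S1S2. Its partners Usp29, a ubiquitin-specific protease gene, and Zim1, a maternal zinc finger gene, had no count in any library. In the Mest domain, Mest, a paternal gene of mesoderm, also had no count. Its antisense neighbour Copg2, a coatomer subunit gene, was at 49.7 ± 5.88 CPM in WT, 40.7 ± 3.19 CPM in S1S2 and 45.1 ± 2.71 CPM in G9Gl (SD, n = 3), with a difference of -0.29 in S1S2 (adjusted p = 0.0052).

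None of the remaining members passed the fold cutoff. Slc38a4, an amino acid transporter gene with the highest level per length of all members in WT (49.5 CPM per kb), had 213, 210 and 209 CPM in WT, 162, 170 and 159 CPM in S1S2 and 222, 232 and 226 CPM in G9Gl. The S1S2 libraries were the lowest, by 0.37 from WT on the log2 scale (SE 0.03, adjusted p = 9.09e-07), and G9Gl was higher than WT by 0.11 (adjusted p = 0.0377). Gnas, which encodes Gs alpha and alternative first-exon products, was at 508 ± 19.1 CPM in WT, 443 ± 6.51 CPM in S1S2 and 484 ± 11.2 CPM in G9Gl. The S1S2 difference of -0.20 passed the adjusted p cutoff (6.67e-04) and the G9Gl difference of -0.07 did not (0.18). The gene's sum hides its imprinted first-exon products, which are not separated in the counts.

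Zrsr1, a retrogene copy of a splicing factor gene inside Commd1, was lower in S1S2 by 0.41 (SE 0.14, adjusted p = 0.00302) and close to WT in G9Gl (0.0012, adjusted p = 0.99), at 13.3 CPM in both WT and G9Gl. Inpp5f, a phosphoinositide phosphatase gene with an imprinted brain variant, was higher in both mutants, from 25.7, 25.02 and 27.3 CPM in WT to 30.8, 31.5 and 33.6 CPM in S1S2 and 33.1, 32.2 and 33.7 CPM in G9Gl. The differences were 0.30 and 0.34 on the log2 scale (adjusted p = 4.44e-04 and 1.01e-04). Airn, the paternal RNA antisense to Igf2r, was at 13.7 CPM in WT, 11.6 CPM in S1S2 and 14.4 CPM in G9Gl and passed no cutoff against WT (adjusted p = 0.059 and 0.55). Its maternal target Igf2r, the receptor that clears IGF2, was at 602, 579 and 621 CPM in the same order (adjusted p = 0.29 and 0.43). Mcts2, a retrogene in an intron of H13, had log2 fold changes of -0.26 and -0.34 (adjusted p = 0.085 and 0.029), and Impact, an inhibitor of the kinase Gcn2, of -0.10 and -0.02 (adjusted p = 0.20 and 0.83). Nnat (neuronatin) and Nap1l5 had no count in any library, and Zdbf2 had at most 1 count in a library.

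When fold was ignored and an adjusted p of 0.01 or less was enough, 9 of 19 members were lower in S1S2 than in WT, where 17.6% of all tested genes were, and 3 were higher, where 20.3% of all genes were. In G9Gl 4 members were lower, with 16.0% of all genes, and 3 were higher, with 19.0%. G9Gl was above S1S2 for 8 members and below it for 3, with 21.6% and 21.1% of all genes. The members lower in S1S2 were Copg2, Dlk1, Gnas, Grb10, Kcnq1ot1, Peg12, Slc38a4, Ube3a and Zrsr1. They come from several domains and both parental classes, and apart from Grb10 they differed from WT by between 0.20 and 0.45 on the log2 scale. S1S2 and G9Gl were compared with the same WT libraries, so their values against WT are not independent.

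Regulators of imprints were read for comparison, among them Zfp57, Zfp445, Trim28, Dnmt1 and Uhrf1, which keep the methylation of control regions through replication. Of 17 listed, 15 were tested and 0 were called in any comparison by edgeR or DESeq2. By edgeR, 9.0%, 10.2% and 13.1% of all tested genes were called in S1S2 against WT, G9Gl against WT and between the mutants. In each comparison 8 of the 15 regulators had an unadjusted p under 0.05. Over all 15540 tested genes this held for 8492 in S1S2 against WT, 8142 in G9Gl against WT and 8984 between the mutants, so by this measure the regulators were near the background. At an adjusted p of 0.01 or less with fold ignored, Dnmt1, Ezh2, Setdb1 and Zfp57 were lower in S1S2 than in WT and 0 were higher. Of all tested genes 17.6% were lower and 20.3% higher. In G9Gl against WT 4 were lower and 1 higher, beside 16.0% and 19.0%. G9Gl was above S1S2 for 2 and below it for 3, beside 21.6% and 21.1%. The log2 fold changes of the 15 regulators were between -0.37 and 0.05 in S1S2 and between -0.49 and 0.18 in G9Gl.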

How the data were processed

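Total RNA of 9 MEF libraries was sequenced, 3 each of WT, S1S2 and G9Gl, and the groups were taken from the labels. The deposited table holds unnormalized read counts for Ensembl genes. The authors, according to their methods, used cutadapt for trimming, aligned the reads to GRCm38 with STAR (2.5.2b) and counted with TEtranscripts, which can share multiply aligned reads among similar genes. The methods also name count matrices from snakePipes, used for expression by H3K9 methylation state. They do not say which of these gave the table used here. The annotation release and the use of strand in counting are not given in the sources used here. Identifiers were matched to GENCODE M21 (47310 of 47937), from which symbols, positions and exon lengths were taken.

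Groups were compared with edgeR 4.0.16 (R 4.3.3), by its quasi-likelihood F test, after TMM normalization and filterByExpr, all 9 libraries in 1 fit, with Benjamini-Hochberg adjustment over 15540 genes. All adjusted p-values are from this test unless stated otherwise. A call required an adjusted p no higher than 0.01 together with a 2-fold or larger difference. CPM values are scaled by the TMM factors, and SE come from log2 CPM with a prior count of 2. Floors and intervals cover counting error only, since the reads carried no molecular identifiers and may repeat a molecule, and the 95% ratio intervals are exact conditional intervals.

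The members and lists were chosen with earlier results of these data known. All 35 members are named, those called with every library's value, and of neighbour genes those called and, whether called or not, Cdkn1c and Igf2r. Gm38393, Snhg14, Mkrn3, Gm9801 and A230006K03Rik were chosen after their values were seen. Replicates differed by more than counting noise (chi-square per degree of freedom 2.57 to 23.5). Alternatives were DESeq2 1.42.0, edgeR with DESeq2 size factors, edgeR without TMM factors, no low-count filter, a minimum of 10 counts throughout, a cutoff of adjusted p 0.05 with fold ignored, only the libraries compared, a replicate block, removal of chromosome medians, and leaving out each library. Applying them to the neighbour and regulator lists was chosen after seeing the data.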

Additional observations from a re-analysis of the deposited data

Results flagged for a closer look

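For 3 members the mutants differed from each other by 2-fold or more at an adjusted p no higher than 0.01 in the direct comparison of G9Gl with S1S2, and 8 others passed the adjusted p cutoff alone. The log2 fold change was -7.68 for Snrpn, a fitted value against libraries with no count, -3.74 for Plagl1 and -1.22 for Phlda2, with adjusted p of 1.63e-06, 1.99e-10 and 0.00558. Plagl1 is the one whose called changes against WT had opposite signs. Snrpn was called lower than WT in G9Gl, its S1S2 difference of -0.82 (adjusted p = 0.026) was not called, and Phlda2 was called against WT in S1S2 only.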

How the results depend on the processing

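The calls of Plagl1 in all 3 comparisons and of Snrpn in both G9Gl comparisons held under every alternative in which the gene was tested, and Grb10 and Phlda2 stood close to a cutoff. The number of called members in S1S2 against WT was 14 at a looser cutoff, adjusted p 0.05 with fold ignored, and between 1 and 3 with a library left out, 1 of them without WT replicate 3 or S1S2 replicate 1. In G9Gl against WT it was 4 with DESeq2, 4 with no filter, 1 at a minimum of 10 counts in every library and 9 at the looser cutoff. Between the mutants it was 5 with DESeq2, 6 with no filter, 1 at the minimum of 10 counts and 14 at the looser cutoff. DESeq2 and the fit without a filter added Asb4 and Rian in G9Gl against both others, and Peg3 between the mutants, and lost calls at the minimum of 10 counts came from members no longer tested. For the neighbour genes the minimum of 10 counts gave 1, 2 and 2 calls and the looser cutoff 17, 14 and 15, in the order S1S2 against WT, G9Gl against WT and between the mutants, and leaving out a library gave between 5 and 7 between the mutants, the highest without S1S2 replicate 2. Phactr2, next to Plagl1, had too few counts to be tested in the report (11, 6 and 7 in WT, 7, 11 and 19 in S1S2, 0 in all G9Gl libraries) and was called in both G9Gl comparisons with DESeq2, without a filter and with any library left out. Ddc, next to Grb10, with 3, 10 and 12 counts in G9Gl and at most 1 elsewhere, was called in part of these fits. For the 15 tested imprint regulators the looser cutoff gave 7, 8 and 8. Of all 15540 tested genes, 48.9%, 45.9% and 53.3% passed the looser cutoff in the same order, so the counts at that cutoff (members of 19, neighbours of 26) are not read as particular to a list.

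Among 787 refits of member fold changes, 754 kept their sign and side of the cutoffs, and none of the 8 called results changed sign. Signs changed in 17 refits of 6 uncalled results. For Zrsr1 in G9Gl these were -0.029 without a composition factor, -0.0016 without a filter and -0.0399 with chromosome medians removed. With a library left out, Zrsr1 in G9Gl ranged from -0.073 to 0.11, Phlda2 in G9Gl from -0.33 to 0.29, Slc22a18 in G9Gl from -0.22 to 0.12, Airn in G9Gl from -0.032 to 0.13, Impact in G9Gl from -0.084 to 0.019, and Mcts2 between the mutants from -0.21 to 0.0054.

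The replicate numbers come from the labels and nothing in them marks a shared culture or day. Same-numbered libraries correlated in their deviations by between -0.069 and 0.124, so the numbers were not taken as pairs. With the replicate block, 3, 2 and 3 members were called, as without it.

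Depth limits the 16 untested members. A count of 0 in a library was read against a floor of 3 counts, between 0.0923 and 0.141 CPM. Meg3, Mest and Ndn had no count in all 9 libraries together, which allows less than this floor. Very low expression of these genes cannot be told from absence. The counts do not resolve parental alleles or starts.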

Other observations

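On chromosome 7 between Snrpn and Mkrn3, a pair of non-coding genes was higher in G9Gl, where Snrpn had no count. In S1S2 both were lower than in WT and not called (adjusted p = 0.032 for A230006K03Rik and 0.0135 for Gm9801). A230006K03Rik (61127996 to 61311721, minus strand) had 1, 2 and 3 counts in WT, none in S1S2 and 290, 340 and 319 in G9Gl, and Gm9801 (62094506 to 62209479, minus strand) had 7, 3 and 4 counts in WT, 1, 0 and 0 in S1S2 and 66, 83 and 83 in G9Gl. All G9Gl libraries lay above all others for both (adjusted p against WT 2.6e-12 and 9.58e-09). Atp10a, a phospholipid transporter gene on the other side of Ube3a, rose in G9Gl from 32.6, 33.0 and 31.9 CPM to 71.9, 75.2 and 76.4 CPM (log2 fold change 1.20, adjusted p = 1.13e-12), and its S1S2 libraries lay between, at 42.6, 44.0 and 42.9 CPM.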
